A study of Mus musculus with 13 samples.

Results

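Genes of amino acid carriers and their relatives were followed in the mouse submandibular gland, one of the major salivary glands, from the embryo to the adult. They were chosen by symbol as all members of the solute carrier families Slc1, Slc3, Slc6, Slc7, Slc16, Slc36, Slc38 and Slc43, which gave 73 of the 23364 genes in the files. Of these, 47 reached 1 FPKM (fragments per kilobase of gene, scaled to the reads of the library) in at least 1 library and were tested, and the other 26 stayed below it. Tested were 3 of 7 members of Slc1, 1 of 2 of Slc3, 8 of 17 of Slc6, 9 of 15 of Slc7, 12 of 14 of Slc16, 3 of 4 of Slc36, 8 of 11 of Slc38 and 3 of 3 of Slc43.

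Whole glands of C57BL/6 mice were sequenced in 13 libraries. The embryonic stages were E14.5 with 3 libraries and, with 2 libraries each, E16.5 and E18.5. Later ages, again with 2 libraries each, were postnatal day 5 (P5), 4 weeks (4wk) and 12 weeks (12wk). Each embryonic library pooled the glands of 3 animals at E14.5 and of 2 animals at E16.5 and E18.5. The sex of embryos and P5 mice was not determined, and the 4wk and 12wk mice were males, so that age and sex cannot be told apart in comparisons with the adult. The labels give no treatment or targeted allele.

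Amino acids cross cell membranes through carrier proteins. Several carriers of the Slc7 family work as light chains that must bind a heavy chain of the Slc3 family to reach the cell surface, where the pair exchanges one amino acid for another. Carriers of the Slc1, Slc6 and Slc38 families instead use the sodium gradient to load the cell, Slc36 carriers use protons, and Slc16 carriers move lactate, ketone bodies or aromatic amino acids. Salivary acinar cells make and export large amounts of protein, for which they take up amino acids from the blood.

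The libraries held between 5817293 (4wk replicate 1) and 48314162 reads on genes (P5 replicate 1), as computed from the smallest steps in the FPKM values, and 9044 to 89168 of these were on the 73 carrier genes. On a gene of 1 kilobase, 1 read was worth between 0.0207 and 0.1719 FPKM, so that the 4wk libraries were the least able to show weak genes. The 10 most abundant genes took 5.9% to 9.3% of all FPKM at E14.5 and E16.5 but 48.1% to 61.1% in the adult, which lowers the FPKM of all other adult genes. A second scale was therefore used, in which each library was divided by its median-of-ratios factor (1.148 to 1.38 in the embryo, 1.031 and 1.089 at P5, and 0.617 to 0.714 in the adult), and values on it are called rescaled. E14.5 replicate 1 stood apart, with a summed FPKM of 5 acinar marker genes of 36.5 against 343 and 304 in the other E14.5 libraries, of 5 erythroid markers of 3344 against 482 and 864, and of 5 skeletal muscle markers of 255 against 129 and 101. Its part in the carriers that were highest in it, among them Slc6a17, Slc7a11 and Slc16a1, was not tested beyond leaving it out. Genes of fat cells were higher in replicate 1 than in replicate 2 at E18.5, P5 and 4wk, and both P5 libraries held them (values beside Slc36a2). The 5 acinar markers of the labelled tissue summed to 52600 FPKM or more in each adult and P5 library, but different genes carried the sum. Smgc was at 42935 and 47357 FPKM at P5 and at 0.154 to 58.6 in the adult, and Prol1 at 15940 and 18702 at P5 and at 49777 to 80967 in the adult. The 4 granular duct markers summed to 8280 FPKM or more in each adult library and to at most 30.4 before, and Ren1 among them was at 0 in every library but 12wk replicate 1 (0.0645).

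Together the 73 genes summed to between 344 and 476 FPKM in every library. Their share of all FPKM was 0.061% to 0.103% in the embryo, 0.09% and 0.076% at P5, and 0.04% to 0.055% in the adult. The rescaled sum went the other way, from 286.6 to 344.6 in the embryo to 434.9 and 399.5 at P5 and 540.5 to 579.8 in the adult. The course of the total thus depends on the scale. The leading carrier changed with age. Slc38a2, a sodium-coupled carrier of small neutral amino acids, led at E14.5 with 72.7 FPKM ± 4.03 (SD, n = 3) and at E16.5 with 58.8 ± 19.5 (SD, n = 2). Slc1a5, the sodium-coupled glutamine exchanger, led at E18.5 with 50.4 ± 4.64 and at P5 with 82.2 ± 11.8, and Slc3a2, the heavy chain, at 4wk with 52.7 ± 0.0785 and at 12wk with 75.1 ± 15.6 (SD, n = 2 each). At E16.5, E18.5 and 4wk the leading and the next gene lay within the spread of their replicates. Slc38a10, a sparsely studied member found at internal membranes, was among the 4 highest at every time point, at 24.7 to 41.6 FPKM in the single libraries (exons of Gm11769 on the other strand overlap it). Among the 26 genes below 1 FPKM, the highest values ranged from 0.0152 for Slc36a3 to 0.949 for Slc38a5, and none was at 0 in every library. Because whole glands were sequenced, fewer cells of a type and less RNA per cell cannot be told apart for any value given here.

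**Figure D1:**
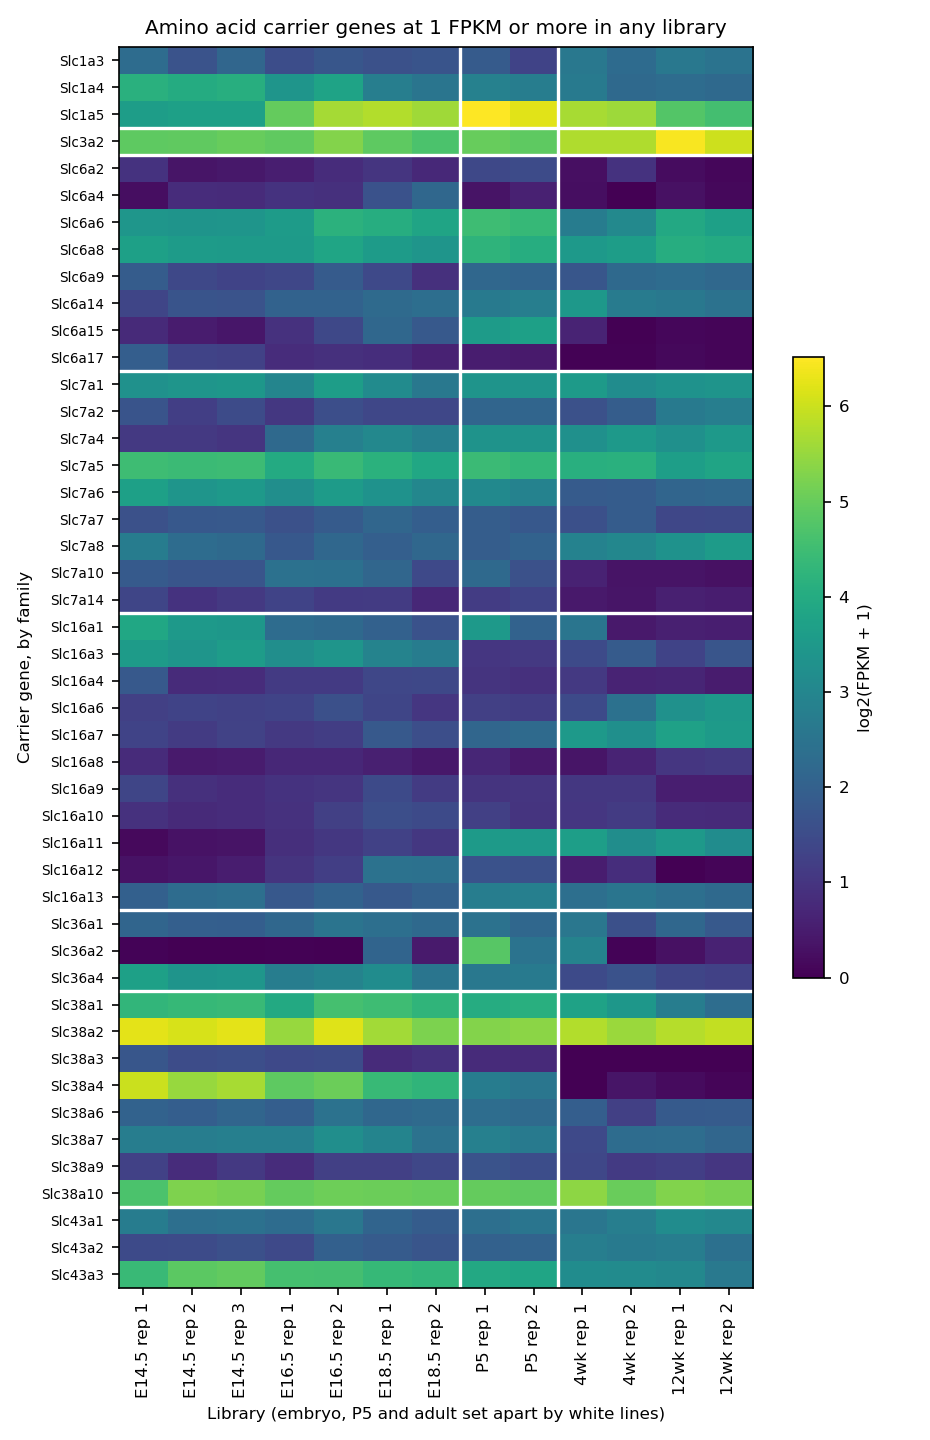
Colour gives log2(FPKM + 1) of 46 of the 47 tested carrier genes (vertical axis, by family) in each of the 13 libraries (horizontal axis, by age). Slc38a2 and Slc38a10 were bright throughout, Slc38a4 faded from 62.6 FPKM at its highest in E14.5 to at most 0.288 in the adult, and Slc3a2 brightened in the adult.

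Between embryo (7 libraries) and adult (4 libraries), 7 of the 47 carriers were higher in the adult, beside 5.58% of all 14650 tested genes, and 12 were lower, beside 38% of all genes. A gene was called where it differed by at least 1 on the log2(FPKM + 1) scale with an adjusted p under 0.1 in limma. This scale understates the change of genes near or below 1 FPKM. In the stage comparisons the ages of a stage counted as its replicates (E14.5, E16.5 and E18.5, or 4wk and 12wk). Their SE and adjusted p therefore mix change between ages with the spread of replicates. The higher genes were Slc3a2, Slc7a4, Slc7a8, Slc16a6, Slc16a7, Slc16a11 and Slc43a2, and the lower ones included Slc1a4, Slc6a17, Slc7a6, Slc7a10, Slc16a1, Slc16a3, Slc36a4, Slc38a1, Slc38a3, Slc38a4 and Slc43a3. On the rescaled values, 17 carriers were higher (beside 13.8% of all genes) and 4 lower (14.7%). All 7 higher genes were called on both scales, but of the 12 lower ones Slc7a10, Slc16a1, Slc38a3 and Slc38a4 alone. The median log2 fold change of all genes was -0.75 as deposited and -0.08 rescaled, and that of the carriers -0.26 and 0.53. Called higher on the rescaled values alone were Slc1a3, Slc1a5, Slc6a8, Slc6a9, Slc6a14, Slc7a1, Slc7a2, Slc16a13, Slc38a10 and Slc43a1, with differences of 1.01 (Slc7a1) to 1.65 (Slc6a14). Without 12wk replicate 1, the carriers called higher on the deposited values numbered 4.

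**Figure D2:**
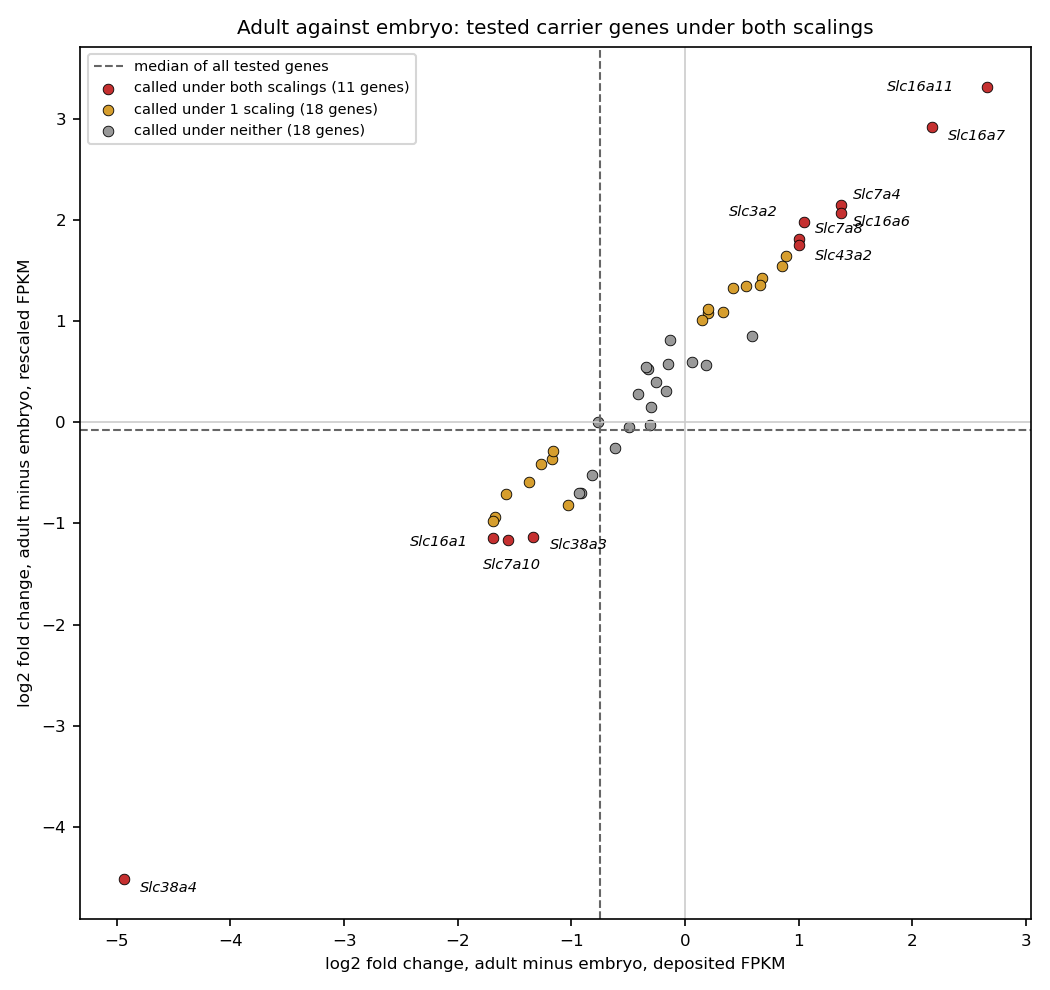
Each point is 1 of the 47 tested carrier genes, placed by its log2 fold change (adult minus embryo) in deposited FPKM on the horizontal axis and in rescaled FPKM on the vertical axis, with dashed lines at the median of all 14650 tested genes. The 11 genes called under both scalings are in red and named, 18 genes called under 1 scaling are in yellow, and 18 called under neither are in grey.

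Slc3a2 (chr19:8781372-8797859, mm9, minus strand) encodes the CD98 heavy chain that brings 6 light chains to the cell surface. It was at 29.1, 29.4 and 30.8 FPKM at E14.5, with 29.5 and 38.3 at E16.5, then 28.6 and 24.4 at E18.5, next 31.2 and 28.8 at P5, followed by 52.7 and 52.8 at 4wk, and finally 86.1 and 64.1 at 12wk. Every adult library was above every earlier one. The adult exceeded the embryo by 1.05 ± 0.15 (log2, SE, adjusted p = 1.9e-05; rescaled 1.98, adjusted p = 5.9e-08) and P5 by 1.04 (adjusted p = 0.0015). Without 12wk replicate 1 the deposited differences were 0.90 and 0.89, and without P5 replicate 2 the second was 0.98, all under the fold limit. Between P5 and the embryo Slc3a2 differed by 0.01 (adjusted p = 0.97).

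The 6 light chains took different courses. Slc7a5, the LAT1 carrier of leucine and other large neutral amino acids, was the highest of the 6 in every library, at 20.9 to 21.5 FPKM at E14.5, 13.8 to 20.4 at E16.5 and E18.5, 20.9 and 18.9 at P5, followed by 16.2 and 16.6 at 4wk, and finally 11.6 and 12.99 at 12wk. Its adult and embryonic values overlapped, and it was not called (-0.34, adjusted p = 0.05, and 0.55 rescaled, adjusted p = 0.0023). Slc7a8 (chr14:55341053-55400723, minus strand), the LAT2 carrier with a broader range of neutral amino acids, was at 2.50 to 5.67 FPKM in the embryo, 2.77 and 3.10 at P5, followed by 6.43 and 7.10 at 4wk, and finally 8.94 and 10.9 at 12wk. All adult values exceeded all earlier ones, by 1.00 ± 0.18 over the embryo (adjusted p = 0.00018; rescaled 1.81) and 1.23 over P5 (adjusted p = 0.0018). The first difference stood at the fold limit and fell below it (0.88 to just under the limit) when any 1 of 6 libraries was left out, namely either of those of E16.5, E18.5 or 12wk. Slc7a6, which exchanges cationic for neutral amino acids, was at 7.12 to 12.1 FPKM in the embryo, 7.46 and 6.40 at P5, followed by 2.63 and 2.73 at 4wk, and finally 3.39 and 3.52 at 12wk. Its adult values lay below all others (-1.37 against the embryo, adjusted p = 1.3e-06), but the rescaled difference of -0.59 was not called.

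Slc7a7, a second exchanger of cationic for neutral amino acids, was at 1.63 to 3.45 FPKM in all libraries and not called between stages (exons of Oxa1l on the other strand overlap it). Slc7a10, the carrier of small neutral amino acids and D-serine, was at 2.26 to 2.58 at E14.5, with 4.36 and 4.34 at E16.5, then 3.43 and 1.71 at E18.5, next 3.68 and 2.09 at P5, and 0.216 to 0.529 in the adult. Embryo and adult did not overlap, and the fall was called on both scales (-1.56 and -1.16, adjusted p = 1.1e-05 and 0.00014). Adult values rested on 4 to 12 reads a library, and exons of Lrp3 on the other strand overlap the gene. Slc7a11, the cystine and glutamate exchanger, stayed at 0.556 FPKM or less and was not tested. Slc3a1, the other heavy chain, was at 0 to 0.135 FPKM, and its light chains Slc7a9 (0 to 0.105) and Slc7a13 (0 to 0.0644) were as low, with 44, 21 and 13 reads over all libraries.

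The ratio of Slc3a2 to the sum of its 6 light chains is free of the scaling between libraries. It was 0.653, 0.748 and 0.775 at E14.5, with 0.912 and 0.913 at E16.5, then 0.797 and 0.838 at E18.5, next 0.828 and 0.872 at P5, followed by 1.89 and 1.80 at 4wk, and finally 3.33 and 2.19 at 12wk. Heavy chain RNA was thus below light chain RNA in all 9 libraries up to P5 and above it in all 4 adult ones. As deposited, the light chain sum went from 29.1 to 44.5 FPKM in the embryo to 25.9 to 29.4 in the adult. Division by the median-of-ratios factors lowers every embryonic sum and raises every adult one. Every adult sum then lies above every embryonic one, so the direction depends on the scale. Among the light chains, Slc7a8 over Slc7a5 moved from 0.132 to 0.264 up to P5 to 0.396 and 0.429 at 4wk, and finally 0.767 and 0.841 at 12wk. By Pearson correlation over the 6 time point means, the carrier most like Slc3a2 was Slc16a6 (r = 0.953), and most like Slc7a5 was Slc16a1 (r = 0.962). Each r was picked as the highest among the tested carriers, and these descriptions rest on shared libraries. The Slc16a1 means average replicates that lay far apart, 10.4 and 3.15 FPKM at P5 and 4.74 and 0.369 at 4wk. The granular duct markers rose over the same ages (above), and their part in these values was not tested.

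**Figure D3:**
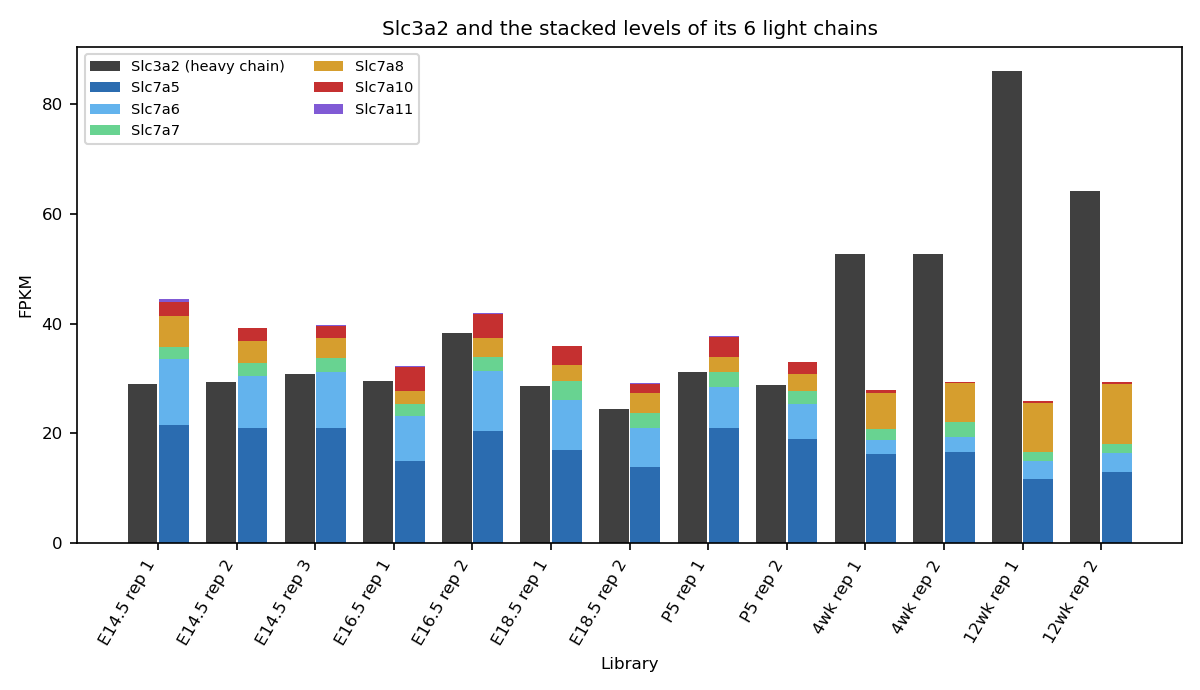
For each of the 13 libraries (horizontal axis), the dark bar is the FPKM of Slc3a2 and the stacked bar that of its 6 light chains. The dark bar is the lower one in the 9 embryonic and P5 libraries and the higher one in the 4 adult libraries, where it reached 86.1 FPKM.

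Several carriers are known targets of the amino acid response, in which the factor ATF4 binds an element with the letters TGATGNAA when amino acids are short. Promoter windows of 250 bases before to 50 bases after the start (RefSeq, GRCm38.p6) were on hand for 50 of the 73 carriers, and 3 of them, Slc1a4, Slc7a7 and Slc7a11, held the element on either strand. In all, 4 of 71 carrier windows held it (5.63%), beside 3.97% of all 32851 windows. The carrier windows included overlapping ones of Slc7a7 that shared 1 element, which was thus counted in more than 1 window. Windows of these 3 genes are shown from 110 bases before the start to the start, or to the end of an element that runs past it, because no other carrier with a window held the element. They run 5′ to 3′ on the strand of the gene, with the element (or TTNCATCA, its reverse complement) in capitals:
Slc7a11 (chr3:50443614-50443723): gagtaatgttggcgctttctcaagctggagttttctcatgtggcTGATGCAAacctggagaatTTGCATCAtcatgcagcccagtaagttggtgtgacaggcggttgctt
Slc1a4 (chr11:20332710-20332823): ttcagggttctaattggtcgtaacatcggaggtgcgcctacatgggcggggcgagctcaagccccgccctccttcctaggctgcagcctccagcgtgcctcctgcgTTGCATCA
Slc7a7 (chr14:54417938-54418054): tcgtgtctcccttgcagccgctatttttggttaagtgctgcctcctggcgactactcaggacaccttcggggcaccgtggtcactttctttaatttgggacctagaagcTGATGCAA

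The Slc7a11 window held 2 elements on opposite strands, with first bases at -66 and -47 from the start. The Slc7a7 window shown in part held 2 on the same strand, at -141 (outside the stretch shown) and -1. Of all windows 23 held 2 or more (0.07%). A match describes letters and no binding, and the element was chosen after the values were seen. Slc7a11 was highest in E14.5 replicate 1 (0.556 FPKM against 0.0601 to 0.215 in the other embryonic libraries), Slc7a7 was called in no stage comparison, and Slc1a4 was lower in the adult as deposited (values with its relative Slc1a5).

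Among the cationic amino acid carriers, Slc7a4, whose substrate is not settled, rose early. It was at 1.01 to 1.14 FPKM at E14.5, with 3.68 and 6.19 at E16.5, then 7.28 and 6.01 at E18.5, next 9.11 and 9.15 at P5, and 8.64 to 10.2 in the adult. The step from E14.5 to E16.5 was called (1.48, adjusted p = 0.00038), as were the adult (1.37, adjusted p = 0.0066) and P5 (1.33, adjusted p = 0.067) against the embryo. The P5 call ended without either P5 library (adjusted p up to 0.27) or without E14.5 replicate 2. Exons of P2rx6 on the other strand overlap Slc7a4. Slc7a1, the general carrier of arginine and lysine, was level as deposited (5.14 to 11.3 FPKM in all libraries, 0.15, adjusted p = 0.44), and higher in the adult when rescaled (1.01, adjusted p = 3.4e-05). Slc7a1, Slc1a4, Slc16a13 and the other carriers named for a call on the rescaled values alone, or for their place among those below 1 FPKM, were chosen for mention after values were seen.

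Neutral amino acid carriers of families Slc1 and Slc38 led the embryo and P5. Slc38a1, Slc38a2 and Slc38a4 are neighbours on the minus strand of chromosome 15 (chr15:96401849-96473344, chr15:96517825-96530129 and chr15:96825254-96886387). Slc38a4, a carrier of neutral amino acids abundant in fetal tissues, was at 62.6, 44.4 and 49.4 FPKM at E14.5, with 28.6 and 32.0 at E16.5, then 19.96 and 18.3 at E18.5, next 5.64 and 4.93 at P5, followed by 0 and 0.288 at 4wk, and finally 0.152 and 0.0716 at 12wk. Each time point lay below all libraries of the time point before it, except that those of 4wk and 12wk overlapped. In the adult 0 to 13 reads were left in a library, against 1361 to 5192 in the embryo. The fall was -4.94 ± 0.29 from embryo to adult (adjusted p = 8.5e-09, rescaled -4.52), -2.46 from embryo to P5 (adjusted p = 0.001), -1.68 from E18.5 to P5 (adjusted p = 0.00029) and -2.47 from P5 to 4wk (adjusted p = 2.9e-06), each called on both scales. No library left out ended any of these calls. The mesenchyme markers, 4 of 4 of which were lower in the adult on both scales, summed to 653 to 1108 FPKM in the embryo, 411 and 348 at P5 and 12.05 to 50.2 in the adult, with none at 0 in any library. Their part in the fall of Slc38a4 was not tested.

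Slc38a1, which carries glutamine and other small neutral amino acids, was at 14.6 to 23.4 FPKM in the embryo, 15.3 and 16.2 at P5, followed by 12.5 and 9.99 at 4wk, and finally 5.73 and 4.00 at 12wk. It was lower in the adult than in the embryo (-1.27, adjusted p = 0.00016), but not when rescaled (-0.41, adjusted p = 0.13). From 4wk to 12wk it fell on both scales (-1.07 and -1.10, adjusted p = 0.0082 and 0.0020), a call that ended without 4wk replicate 1 (-0.92) or 12wk replicate 2 (-0.86). Slc38a2 kept 36.3 to 75.4 FPKM throughout, and the adult differed from the embryo by -0.13 as deposited (adjusted p = 0.57) and 0.81 rescaled, called on neither. Over P5 the adult was higher on the rescaled values alone (1.08, adjusted p = 0.0046, and 0.41 as deposited). Slc38a3, which exports and imports glutamine with a counter-flow of protons, was at 1.70 to 2.32 FPKM up to E16.5, 0.740 and 0.904 at E18.5, next 0.744 and 0.722 at P5, 0 in both 4wk libraries and 0.0168 and 0.0129 at 12wk, the latter from 1 read each. It was lower in the adult on both scales (-1.34 and -1.13, adjusted p = 9.5e-06 and 2.1e-05).

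Slc1a5 (chr7:17366695-17383623, plus strand) had a peaked course. It was at 11.3, 12.1 and 12.0 FPKM at E14.5, with 30.7 and 48.7 at E16.5, then 53.7 and 47.1 at E18.5, next 90.5 and 73.8 at P5, followed by 49.6 and 45.8 at 4wk, and finally 26.2 and 22.9 at 12wk. Both P5 libraries were above all others. The step from E14.5 to E16.5 was called on both scales (1.63 ± 0.17, adjusted p = 0.00016, and 1.61 rescaled), as was P5 over the embryo (1.65, adjusted p = 0.048), though the latter not without either P5 library (adjusted p = 0.26 and 0.19). The adult differed from the embryo by 0.42 as deposited (adjusted p = 0.41) and was higher when rescaled (1.33, adjusted p = 0.024). Slc1a4, its relative for alanine, serine and cysteine, was at 15.0 to 16.7 FPKM at E14.5, with 9.50 and 12.7 at E16.5, 4.80 to 6.27 at E18.5 and P5, and 3.66 to 5.43 in the adult. It was lower in the adult than in the embryo as deposited (-1.17, adjusted p = 0.0022), with overlap, and was not called when rescaled (-0.36). Within the libraries, Slc1a5 over Slc1a4 went from 0.676 to 0.808 at E14.5 to 3.23 and 3.84 at E16.5, then 9.02 and 9.82 at E18.5, next 14.4 and 12.7 at P5, followed by 9.13 and 12.3 at 4wk, and finally 6.67 and 6.27 at 12wk.

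**Figure D4:**
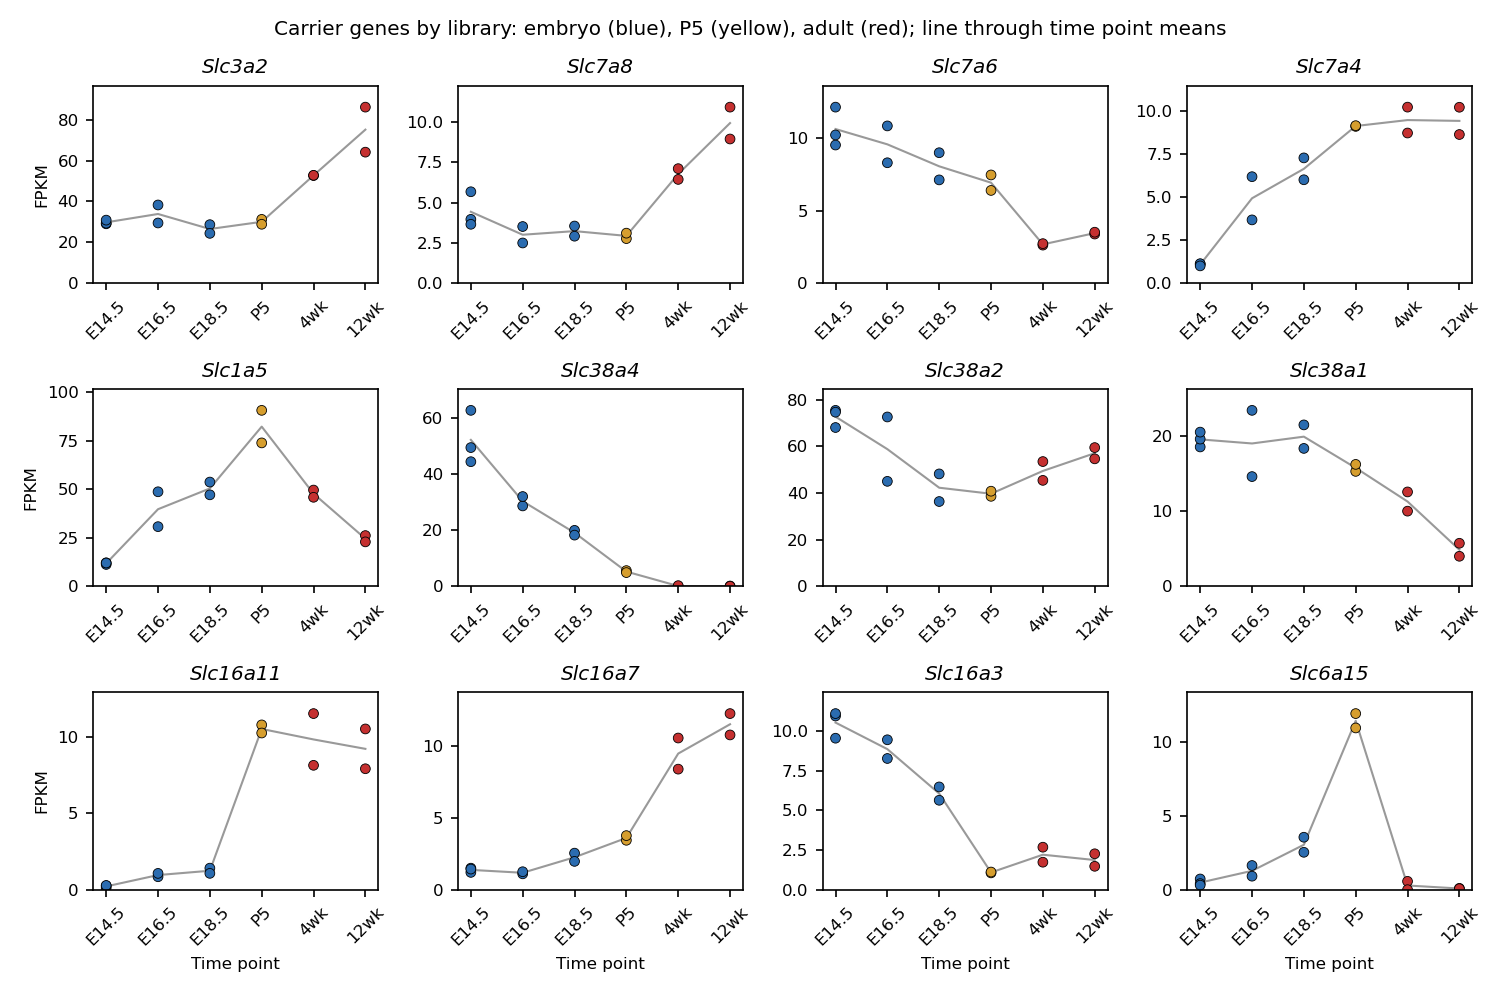
FPKM (vertical axes, from 0) of 12 carrier genes at the 6 time points (horizontal axes), with 1 point for each library and a line through the means. Slc38a4 fell at each step to P5 and was near 0 in the adult, Slc1a5 and Slc6a15 peaked at P5 (90.5 and 11.95 FPKM at the highest), Slc16a11 was at 7.93 FPKM or more from P5 on, and Slc3a2 was highest in the adult.

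In the Slc6 family, Slc6a15, a neuronal carrier of branched-chain amino acids and proline, had a sharp peak at P5. It was at 0.308 to 0.726 FPKM at E14.5, with 0.916 and 1.64 at E16.5, then 3.56 and 2.54 at E18.5, next 10.98 and 11.95 at P5, followed by 0.566 and 0 at 4wk, and finally 0.0880 and 0.0676 at 12wk. The P5 libraries overlapped no other time point, with P5 over E18.5 by 1.63 (adjusted p = 0.0018) and 4wk under P5 by -3.32 (adjusted p = 3e-06), on both scales. Slc6a6, the taurine carrier, was at 9.32 to 9.80 FPKM at E14.5, 10.97 to 17.1 at E16.5 and E18.5, 21.3 and 19.5 at P5, followed by 5.63 and 7.31 at 4wk, and finally 14.3 and 12.1 at 12wk. Its fall from P5 to 4wk was called as deposited (-1.53, adjusted p = 0.0001) but not when rescaled (-0.92). The adult was under P5 by -1.06 (adjusted p = 0.016), which was not called when rescaled (-0.43), without P5 replicate 1 (adjusted p = 0.12) or without either 4wk library (-0.85 and -0.96). Slc6a8, the creatine carrier, was at 9.62 to 18.0 FPKM and was higher in the adult than in the embryo on the rescaled values alone (1.08, adjusted p = 5.7e-06, against 0.20 as deposited).

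The monoamine carriers were low. Slc6a4, the serotonin carrier, was at 0.189 to 0.944 FPKM up to E16.5, 2.14 and 3.49 at E18.5, but 0.279 and 0.518 at P5, and 0 to 0.217 in the adult, and fell from E18.5 to P5 (-1.43, adjusted p = 0.0028, on both scales). Slc6a2, the noradrenaline carrier of sympathetic nerves, was at 0.286 to 1.02 FPKM in the embryo, 1.64 and 1.82 at P5, and 0.198, 0.952, 0.159 and 0.0753 in the adult. It was lower in the adult than at P5 (-1.06, adjusted p = 0.0050), but not when rescaled (-0.86) or without 12wk replicate 2 (-0.97). Slc6a17, a vesicular carrier of neurons, was at 2.84, 1.46 and 1.40 FPKM at E14.5, 0.533 to 0.871 at E16.5 and E18.5, 0.430 and 0.395 at P5 and 0.0199 to 0.0944 in the adult. Its call between embryo and adult (-1.03, adjusted p = 0.00046) ended when rescaled (-0.82), without E14.5 replicate 1 (-0.89) and without E14.5 replicate 2 (just under the fold limit). Of 6 tested neuron and glia markers, 3 were lower in the adult and 2 of them when rescaled. The 7 listed genes summed to 52.2 to 101 FPKM in the embryo, 49.2 and 57.6 at P5 and 31.8 to 50.4 in the adult. Chat and Elavl4 were at 0 in at least 1 adult library. Sox10 made up most of the adult sum, at 26.6 to 42.9 FPKM against 33.2 to 71.9 in the embryo. Tubb3 went from 10.8 to 42.2 FPKM in the embryo to 1.04 to 2.70 in the adult. The part of these markers in the courses of the nerve carriers was not tested.

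Among the Slc16 lactate carriers, Slc16a1 and Slc16a3 were lower in the adult than in the embryo as deposited, and Slc16a7 was higher. Slc16a1, which carries lactate in either direction, was at 13.7, 10.3 and 10.01 FPKM at E14.5, with 3.96 and 3.66 at E16.5, then 3.04 and 2.10 at E18.5, next 10.4 and 3.15 at P5, followed by 4.74 and 0.369 at 4wk, and finally 0.497 and 0.453 at 12wk. It was lower in the adult than in the embryo on both scales (-1.69 and -1.14, adjusted p = 0.0078 and 0.065), with overlap through 4wk replicate 1. Its call from E14.5 to E16.5 (-1.35, adjusted p = 0.096) ended when any 1 of 9 libraries was left out (adjusted p 0.12 to 0.23). Slc16a3, the lactate exporter of glycolytic cells, was at 9.56 to 11.1 FPKM at E14.5, with 8.28 and 9.46 at E16.5, then 6.49 and 5.65 at E18.5, next 1.06 and 1.11 at P5, and 1.48 to 2.68 in the adult. The fall from E18.5 to P5 (-1.76 ± 0.19, adjusted p = 0.00029) and from the embryo to P5 (-2.20, adjusted p = 0.00013) was called on both scales, and from the embryo to the adult as deposited (-1.67, adjusted p = 2.2e-06) but not rescaled (-0.94). From P5 to 4wk (1.73 and 2.68 FPKM) Slc16a3 was called higher on the rescaled values alone. Exons of Csnk1d on the other strand overlap Slc16a3. Ldha, the lactate dehydrogenase subunit of muscle and tumours, was at 310.5 to 403 FPKM in the embryo, 143 and 126 at P5 and 94.9 to 147 in the adult, a fall of -1.68 (adjusted p = 1.7e-07) that was not called when rescaled (-0.74). Bsg, the chaperone that Slc16a1 and Slc16a3 need to reach the membrane, was at 216 to 294 FPKM in the embryo, 202 and 182 at P5 and 113 to 130 in the adult (-0.99, adjusted p = 5.2e-06, under the fold limit). Rescaled, the difference of Bsg was -0.05 (adjusted p = 0.78). The skeletal muscle markers summed to 101 to 813 FPKM at E14.5 and E16.5, to 2.35 and 20.3 at E18.5, to 5.85 and 1.37 at P5 and to 1.02 to 17.3 in the adult, and their part in the values of Slc16a3 was not tested.

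Slc16a7, a high-affinity carrier of lactate and pyruvate, took the opposite course. It was at 1.11 to 1.501 FPKM at E14.5 and E16.5, 2.55 and 1.97 at E18.5, next 3.45 and 3.77 at P5, followed by 10.6 and 8.42 at 4wk, and finally 12.3 and 10.8 at 12wk. All adult libraries were above all P5 libraries, and these above all embryonic ones. The adult exceeded the embryo by 2.17 ± 0.16 (adjusted p = 6.6e-08) and P5 by 1.31 (adjusted p = 0.00063), and 4wk exceeded P5 by 1.18 (adjusted p = 0.00019), on both scales. Slc16a7 over Slc16a1 went from 0.109 to 0.144 at E14.5 to 24.7 and 23.9 at 12wk, with 2.23 in 4wk replicate 1 and 22.8 in replicate 2.

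Slc16a11 (chr11:70026254-70029919, plus strand), linked to lipid metabolism and pyruvate transport, rose by P5. It was at 0.118 to 0.277 FPKM at E14.5, with 0.848 and 1.07 at E16.5, then 1.41 and 1.07 at E18.5, next 10.8 and 10.3 at P5, followed by 11.6 and 8.16 at 4wk, and finally 10.5 and 7.93 at 12wk. Every library from P5 on was above every embryonic one. P5 exceeded E18.5 by 2.37 ± 0.20 (adjusted p = 5.2e-05) and the adult exceeded the embryo by 2.66 ± 0.22 (adjusted p = 1.7e-07), on both scales, and these calls held without any 1 library. Its neighbour Slc16a13 (chr11:70030291-70034496, minus strand) lies tail to tail with it and was at 2.48 to 4.19 FPKM in the embryo, 5.77 and 6.08 at P5 and 3.70 to 4.77 in the adult. It was called in no stage comparison as deposited, and in the adult over the embryo when rescaled (1.09). The ratio of Slc16a11 to Slc16a13 went from 0.0394 to 0.0661 at E14.5 to 0.342 to 0.558 at E16.5 and E18.5 and to 1.69 to 2.74 from P5 on.

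Slc16a6, a carrier of ketone bodies and taurine, was at 1.05 to 2.00 FPKM up to P5, 1.75 and 4.35 at 4wk, and finally 8.85 and 10.2 at 12wk. The step from 4wk to 12wk was called on both scales (1.45, adjusted p = 0.0052), but was 0.97 without 4wk replicate 1. That from P5 to 4wk was called when rescaled alone (1.25, adjusted p = 0.008, and 0.74 as deposited), and the adult exceeded the embryo by 1.37 (adjusted p = 0.00085) with overlap at 4wk. Exons of Amz2 and Arsg on the other strand overlap it. Slc16a12, a creatine carrier, peaked at E18.5 with 4.48 and 4.44 FPKM, against 0.241 to 0.445 at E14.5, with 0.984 and 1.30 at E16.5, 2.12 and 2.03 at P5 and 0.0118 to 0.812 in the adult. Its rise from E16.5 to E18.5 was called on both scales (1.35, adjusted p = 0.00092). That of the adult under P5 (-1.25, adjusted p = 0.084) ended when rescaled (adjusted p = 0.19) and when any 1 of 5 libraries was left out (adjusted p 0.10 to 0.26).

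Slc36a2, a proton-coupled carrier of glycine and proline that also marks brown fat cells, moved with single libraries. It was at 0 to 0.0427 FPKM at E14.5 and E16.5, 3.32 and 0.393 at E18.5, next 27.1 and 4.56 at P5, followed by 6.58 and 0.0517 at 4wk, and finally 0.226 and 0.535 at 12wk. Replicate 1 was the higher library at E18.5, P5 and 4wk. Ucp1, the heat-producing protein of brown fat (chosen after its values were seen), was at 5.33 and 0.32, 310.83 and 59.21, and 106.44 and 0 FPKM in the same libraries, and at most 0.28 elsewhere. The 3 adipocyte markers summed to 28.1 and 11.8 at E18.5, next 194 and 51.8 at P5, followed by 82.8 and 2.63 at 4wk, 6.59 and 11.5 at 12wk, and at most 0.25 before, where Adipoq was at 0 at E14.5. The order of the replicates of Slc16a1 at E18.5, P5 and 4wk was the same. P5 exceeded the embryo in Slc36a2 by 3.26 (adjusted p = 0.0082, on both scales) and the adult lay under P5 by -2.67 (adjusted p = 0.017), but without P5 replicate 1 these were 2.09 (adjusted p = 0.18) and -1.5 (adjusted p = 0.27). The calls of P5 over E18.5 (2.35, adjusted p = 0.085) and of 4wk under P5 (-2.15, adjusted p = 0.052) were lost when rescaled, the former also without any 1 of 8 libraries and the latter without P5 replicate 1 or 4wk replicate 2 (-0.98 and -0.72). In Slc16a1 the calls of the adult (-1.76, adjusted p = 0.054) and of 4wk (-1.29, adjusted p = 0.070) under P5 were lost when rescaled and without P5 replicate 1 (-1.03 and -0.56), and the first also without any 1 of 3 adult libraries, 4wk replicate 2 and both of 12wk (adjusted p 0.10 to 0.11), the second without 4wk replicate 2 (-0.26). Leaving out replicate 1 of E18.5, P5 and 4wk together ended none of these Slc36a2 calls. In Slc16a1 it ended the call of the adult under P5 (-1.53) but not that of 4wk under P5. That fit had 1 library left at each of these ages. The part of fat tissue in these values was not tested further than by leaving out libraries.

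**Figure D5:**
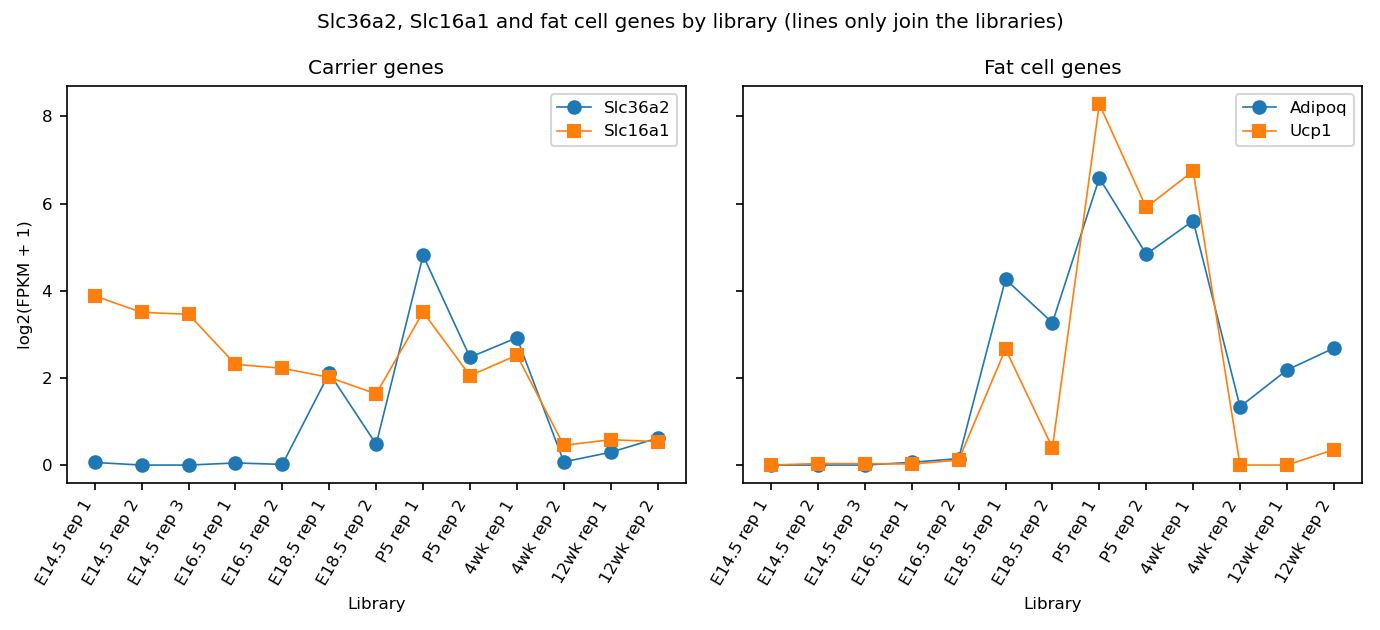
Levels as log2(FPKM + 1) (vertical axes) in the 13 libraries (horizontal axes) of Slc36a2 and Slc16a1 (left) and of the fat cell genes Adipoq and Ucp1 (right). All 4 genes were higher in replicate 1 than in replicate 2 at E18.5, P5 and 4wk, with Ucp1 at 310.83 against 59.21 FPKM at P5.

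Slc36a4, a related carrier of proline and tryptophan, was at 9.39 to 12.0 FPKM at E14.5, 4.76 to 7.98 at E16.5 and E18.5, 5.13 and 5.42 at P5, and 1.40 to 2.14 in the adult. Its adult values lay below all others, as deposited by -1.69 against the embryo (adjusted p = 4.5e-06), -1.21 against P5 (adjusted p = 0.0038) and -1.09 from P5 to 4wk (adjusted p = 0.0012, and just under the fold limit without 4wk replicate 1). Rescaled, these were -0.98, -0.74 and -0.60 and not called.

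In the Slc43 family, Slc43a2, the LAT4 carrier that lets branched-chain amino acids leave the cell, was at 1.70 to 2.97 FPKM in the embryo, 3.04 and 3.18 at P5, followed by 5.85 and 5.47 at 4wk, and finally 5.74 and 4.26 at 12wk. All adult values were above all others. The difference of 1.00 ± 0.14 from the embryo (adjusted p = 2.4e-05, rescaled 1.75) stood at the fold limit and fell to 0.96 to 0.99 when any 1 of 7 libraries was left out (the 3 of E14.5, E16.5 replicate 1, both of 4wk, or 12wk replicate 1). Slc43a3, a carrier of purine bases expressed in vessels, was at 18.6 to 30.1 FPKM in the embryo, 14.2 and 13.2 at P5, and 5.26 to 7.997 in the adult (-1.58, adjusted p = 6.1e-07, and -0.71 and not called when rescaled). The 3 endothelial markers summed to 65.2 to 94.8 FPKM in the embryo, 80.6 and 59.98 at P5 and 15.2 to 30.6 in the adult, with none at 0, and 3 were lower in the adult as deposited and 1 when rescaled. Their part in the fall of Slc43a3 was not tested.

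Counts of calls over the other comparisons were small. P5 exceeded the embryo in 5 carriers (beside 4.14% of all genes) and lay under it in 2 (8.14%), beside 5.55% and 3.9% of all genes for the same counts of carriers when rescaled, and without P5 replicate 1 the former were 2. The adult exceeded P5 in 4 (2.31%), namely Slc3a2, Slc7a8, Slc16a6 and Slc16a7, and lay under it in 9 (20.8%), or 6 without P5 replicate 1. When rescaled these were 8 (6.05%) and 4 (8.53%). The 3 stage comparisons share libraries and are not independent of each other. From E14.5 to E16.5, 2 carriers rose (4.17%) and 1 fell (0.983%), and when rescaled 2 rose (3.64%) and limma called 0 lower (0.751%). From E16.5 to E18.5 1 rose (1.09%, and 1.32% when rescaled). The carriers called lower at that step were 0 in limma (1.85% of all genes, and 1.17% when rescaled), with 6 at an unadjusted p under 0.05 and 2 in voom on the recovered reads. Of all 14650 genes, 2802 were lower at that unadjusted p and 594 in voom. From E18.5 to P5, 3 rose (2.07%) and 3 fell (2.97%), also when rescaled (2.37% and 1.79%). From 4wk to 12wk 1 rose (2.68%) and 1 fell (2.48%), both lost without 4wk replicate 1, while 3 rose and 3 fell without 4wk replicate 2. When rescaled, 2 rose (3.62%) and 1 fell (3.24%) at that step. From P5 to 4wk 1 rose (2.19%) and 8 fell (22.1%), or 7 (6.37%) and 3 (8.72%) when rescaled, and 3 rose without 4wk replicate 1.

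Genes around the carriers were read from lists of related pathways, between embryo and adult. The counts stand beside 5.58% of all tested genes called higher and 38% called lower as deposited, and 13.8% and 14.7% when rescaled, with medians of all genes of -0.75 and -0.08. Of 14 genes of the amino acid response, 3 were higher and 2 lower (median log2 fold change -0.26), and 6 were higher when rescaled (median 0.52). The 3 with the largest change all rose. Asns, which makes asparagine, was at 14.54 to 20.5 FPKM at E14.5 and E16.5, 35.1 and 39.0 at E18.5, next 67.5 and 69.5 at P5, followed by 207.5 and 207.7 at 4wk, and finally 141 and 130 at 12wk (2.91 ± 0.26, adjusted p = 3.6e-07). Nupr1, a stress-induced chromatin protein, was at 11.6 to 18.6 FPKM at E14.5 and 434 to 1094 in the adult (4.03, adjusted p = 2.6e-05). Chac1, which degrades glutathione, was at 0.198 to 0.808 FPKM in the embryo, 8.88 and 9.17 at P5, followed by 3.18 and 19.5 at 4wk, and finally 1.78 and 2.89 at 12wk (1.90, adjusted p = 0.00067). Atf4 itself, chosen after its values were seen, was at 100.2 to 130 FPKM in the embryo, 149 and 138 at P5 and 116 to 131 in the adult.

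Of 24 genes of amino acid sensing by mTORC1, 2 were higher and 5 lower, beside 5.58% and 38% of all genes, and 3 were higher when rescaled, beside 13.8%. The share lower was under that of all genes, and the share higher when rescaled was near it. Rragd, a GTPase that recruits mTORC1 to lysosomes, was at 1.05 to 3.85 FPKM in the embryo, 8.87 and 10.7 at P5 and 16.1 to 21.2 in the adult (2.68, adjusted p = 9e-08), while Sesn1, a leucine sensor relative, fell from 39.2 ± 7.41 to 12.96 ± 1.83 (SD, -1.51, adjusted p = 5.9e-07) and Rraga by 1.21, neither when rescaled. Of 25 genes that synthesise non-essential amino acids, 3 were higher and 7 lower, beside 5.58% and 38% of all genes, and 8 and 1 when rescaled, beside 13.8% and 14.7%. The share lower was under that of all genes on both scales. Gpt2, an alanine transaminase, was higher (1.59) and Psat1 of serine synthesis lower (-1.95, and -1.04 when rescaled). Among 12 genes of branched-chain amino acid breakdown, 1 was higher, Bckdha of the committed step (1.21, adjusted p = 1.9e-05), and 6 when rescaled. Of 20 cytosolic aminoacyl-tRNA synthetases, 3 were lower, Farsb by -1.63, Vars by -1.56 and Dars by -1.23, and 1 was higher when rescaled. Both shares were under those of all genes, 38% and 13.8%. Of 11 genes of glutathione synthesis from cystine, 2 were higher and 1 lower (4 higher when rescaled). Among 6 tested partners of the carriers, Ldha alone was called as deposited. Of 7 tested carriers of other families for amino acids and peptides, limma called 0, and 1 was higher when rescaled. At an unadjusted p under 0.05 in limma, 2 were higher and 3 lower, beside 1586 and 9809 of all 14650 genes. Voom called 1 in each direction, beside 1146 higher and 7297 lower of all genes.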

How the data were processed

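RNA-seq libraries of mouse submandibular gland (50 bp single-end reads, TruSeq RNA kit, which does not mark strand) were analysed from the FPKM values the authors deposited for each gene and sample. Per the authors' methods and processing notes, reads were mapped to mm9 with TopHat2 2.0.13 and Bowtie2 2.2.6, assigned by featureCounts to the UCSC genes of mm9 (leaving out reads that fit several places or more than 1 gene), and turned into FPKM with DESeq2 1.10.1. The deposited FPKM showed no median normalization between samples, so rescaling by median-of-ratios factors was an alternative. Carriers with near-identical copies can be undercounted. FPKM steps gave whole reads for all 20268 genes above 0 for which they were sought (tolerance 1e-06), or at least 99.9936% of each library's total.

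Genes at 1 FPKM or more in at least 1 library (14650) were tested as log2(FPKM + 1) with limma 3.58.1 in R 4.3.3 (mean-variance trend), as 3 stages and as 6 time points, with Benjamini-Hochberg adjustment over all of them. A call needed a log2 fold change of at least 1 and an adjusted p under 0.1. The fit was also run on simulated data, drawn from the mean of all libraries with some genes changed in the adult. These data did not model the rise of the most abundant genes, change between ages of a stage, or change in weak genes. The run therefore cannot show how the fit deals with them. Alternatives were a pseudocount of 0.1, no filter, rescaling, a replicate block, each library left out, and, chosen after seeing the data, voom on the recovered reads (which called 1146 genes higher and 7297 lower in the adult than in the embryo) and leaving out replicate 1 of E18.5, P5 and 4wk. The carriers, gene lists and tests were chosen with earlier results of these data known. Named carriers were the 6 highest at each time point, called carriers without overlap between stages (up to 12 in each direction), called carriers of each step between neighbouring time points (up to 6), and the heavy chains with their light chains. From each gene list the 3 largest changes between embryo and adult were named. The replicates are separate biological samples per the series' labels, with no batch given. Positions are from GENCODE on the same build, and promoters from RefSeq for GRCm38.p6. Python 3.11.15 with pandas 2.3.3, numpy 2.4.6 and matplotlib 3.10.9 was used for the rest. Of the genes, 1 tested carrier and 1 marker gene enter the counts and sums but are not reported here by name.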

Additional observations from a re-analysis of the deposited data

Results flagged for a closer look

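In groups of 4 to 10 libraries, a library was set apart where its gap to the nearest other exceeded Dixon's critical value. Chance passes this value in about 1 of 20 groups drawn from 1 population. Here a group was all embryonic or all adult libraries, so it mixed ages. A change with age can then pass too, and the count cannot be read against that rate. Among the named carriers 67 groups were tested and 8 passed. In the adult, Slc6a2 was at 0.952 FPKM in 4wk replicate 2 against 0.0753 to 0.198 in the other 3 adult libraries. In 4wk replicate 1, Slc6a15 was at 0.566 FPKM (others 0 to 0.088), Slc7a10 at 0.529 (0.216 to 0.259), Slc16a1 at 4.74 (0.369 to 0.497) and Slc36a2 at 6.58 (0.0517 to 0.535). In the embryo, Slc36a2 was at 3.32 FPKM in E18.5 replicate 1 against 0 to 0.393 in the other 6 libraries. In E14.5 replicate 1, Slc6a17 was at 2.84 (others 0.533 to 1.46) and Slc7a11 at 0.556 (0.0601 to 0.215).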

How the results depend on the processing

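Of the 59 calls of named carriers, none reversed under any alternative. The call was kept by 56 with a pseudocount of 0.1, 53 without a filter, 40 when rescaled, 58 in voom on the recovered reads, 49 without the libraries richest in brown fat RNA, and 49 to 57 with 1 library left out. Counts of carriers called higher and lower moved by more than 1.5 times in the cases given next, and the cause was not tested. Rescaling gave 17 and 4 for adult versus embryo, 8 and 4 for adult versus P5, 0 lower for E16.5 versus E14.5, 7 and 3 for 4wk versus P5 and 2 higher for 12wk versus 4wk. A pseudocount of 0.1 gave 8 higher for P5 versus embryo, 14 lower for adult versus P5, 4 higher for E16.5 versus E14.5, 2 lower for E18.5 versus E16.5, 4 and 15 for 4wk versus P5, and 4 and 3 for 12wk versus 4wk. With no filter 0 were lower for E16.5 versus E14.5. Voom gave 9 and 4 for P5 versus embryo, 16 lower for adult versus P5, 5 and 2 for E16.5 versus E14.5, 3 and 2 for E18.5 versus E16.5, 7 higher for P5 versus E18.5, 5 and 15 for 4wk versus P5, and 3 and 2 for 12wk versus 4wk. Over all 14650 genes, voom called 1175 and 1761 for P5 versus embryo and 5104 lower for adult versus P5. For E16.5 versus E14.5 it called 1084 and 355, and for E18.5 versus E16.5 339 and 594. It called 687 higher for P5 versus E18.5, 493 and 5153 for 4wk versus P5, and 357 and 474 for 12wk versus 4wk. Without replicate 1 of E18.5, P5 and 4wk there were 3 higher for P5 versus embryo, 2 and 1 for E18.5 versus E16.5, and 0 and 0 for 12wk versus 4wk. For the pseudocount, the missing filter, the left-out libraries and the replicate block, no counts over all genes are given. Those carrier counts can thus not be set against a share of all genes.

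With each library left out in turn, counts of carriers higher and lower were 4 to 7 and 12 to 13 for adult versus embryo, 2 to 5 and 2 for P5 versus embryo, 3 to 5 and 6 to 10 for adult versus P5, 2 and 0 to 1 for E16.5 versus E14.5, 1 to 2 and 0 to 1 for E18.5 versus E16.5, 2 to 4 and 3 for P5 versus E18.5, 1 to 3 and 6 to 9 for 4wk versus P5, and 0 to 3 and 0 to 3 for 12wk versus 4wk. Where 1 library of a time point was left, it was assumed to vary like the others. Deviations of samples with the same replicate number had a mean r of -0.016 over 30 pairs (-0.352 to 0.273), against 0.012 over 40 other pairs. Where a time point has 2 libraries, their deviations are equal and opposite, so the other pairs largely repeat the first with the sign turned. The comparison therefore cannot decide whether the numbers pair the samples. The replicate block gave 6 and 13 for adult versus embryo, 4 and 2 for P5 versus embryo, 4 and 8 for adult versus P5, and the main counts in the 5 steps, and 56 of the 59 calls remained. The 4wk libraries, with 5817293 and 7957918 reads on genes, limit what can be said of carriers under about 1 FPKM.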
